A study of Rattus norvegicus with 18 samples.

Results

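Cell-surface and secreted proteases were examined in rat T cells that react to myelin basic protein (T-MBP cells), in which the gene Ets1 or the gene Grk2 had been edited. The set held 8 of the 32882 genes of each table: Dpp4, Dpp7, Adam8, Adam10, Adam17, Adam19, Mmp13 and Furin. The genes were chosen from earlier results of these same comparisons and are found in the tables by gene name. Their differences between edited and control cells, and their control levels, are therefore given as a description, with no p-value printed. A member said to be called or to pass had an adjusted p under 0.05 in a fit over all genes. As the genes were chosen from these comparisons, such a call is not independent evidence of a difference.

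The study compared CD4+ T-MBP cells of Lewis rats 3 days after intravenous transfer. Such transfer induces an MS-like disease in the rats, experimental autoimmune encephalomyelitis. For the parenchyma RNA, the paper describes rats that had received Ets1-KO and control cells together. It also states a batch correction per animal where applicable, and the replicate number was used as a block below for that reason. Control cells were electroporated with Cas9 and a non-targeting guide and carried BFP, and Ets1-KO or Grk2-KO cells received a guide to that gene and carried EGFP, so the fluorescent protein differed between the groups as well as the guide. Each culture was a pool of edited cells and not a clone, and the line itself came from an immunized animal and was restimulated with antigen before transfer, as all groups were. Ets1-KO and control cells were sorted from spinal cord parenchyma and, in a separate table, from spleen. Grk2-KO and control cells were sorted from spleen only. The recipients' age is not given in the labels. There were 3 libraries in each of the 6 groups, 18 in all, made with a 3′ mRNA kit.

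Proteases at the T cell surface cut peptides, adhesion molecules and cytokine receptors outside the cell. DPP4, also called CD26, removes dipeptides from the amino end of chemokines and other peptides and is a marker of activated T cells. ADAM10 and ADAM17 shed the outer parts of membrane proteins, L-selectin and TNF among them. Furin activates many precursor proteins in the secretory pathway, ADAM proteases and matrix metalloproteases included.

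The promoters of 4 genes are shown as a description, and no expression value below was derived from them. Dpp4, Dpp7 and Adam19 were called lower in edited cells in at least 1 comparison, and the promoter of Adam17 held the motif that was searched. Each sequence runs 5′ to 3′ on the strand of the gene from 250 bases before to 50 bases after the annotated start in RefSeq, build GRCr8, whereas the counts were made on Rnor_6.0. The motif CCGGAA, a core that ETS family factors bind, was searched on both strands, where the reverse strand reads TTCCGG, and matches are in capitals.
Dpp4, chr3:67452373-67452672, minus strand: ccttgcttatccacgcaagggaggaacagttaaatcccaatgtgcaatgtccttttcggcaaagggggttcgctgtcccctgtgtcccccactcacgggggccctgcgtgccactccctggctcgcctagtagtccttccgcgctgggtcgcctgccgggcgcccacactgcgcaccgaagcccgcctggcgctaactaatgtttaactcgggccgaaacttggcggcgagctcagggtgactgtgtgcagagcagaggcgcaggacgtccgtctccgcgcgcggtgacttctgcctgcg
Dpp7, chr3:28567443-28567742, minus strand: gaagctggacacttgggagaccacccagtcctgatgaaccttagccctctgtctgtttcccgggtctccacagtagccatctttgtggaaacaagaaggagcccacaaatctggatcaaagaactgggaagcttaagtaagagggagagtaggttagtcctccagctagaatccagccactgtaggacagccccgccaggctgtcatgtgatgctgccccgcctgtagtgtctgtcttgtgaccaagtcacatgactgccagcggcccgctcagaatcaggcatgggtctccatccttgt
Adam19, chr10:30992511-30992810, plus strand: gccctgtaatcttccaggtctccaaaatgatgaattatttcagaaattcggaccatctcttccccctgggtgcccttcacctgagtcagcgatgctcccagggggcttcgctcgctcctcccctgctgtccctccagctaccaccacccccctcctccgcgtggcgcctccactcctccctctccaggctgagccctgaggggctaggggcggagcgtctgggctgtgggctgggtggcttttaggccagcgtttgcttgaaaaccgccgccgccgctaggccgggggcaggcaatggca
Adam17, chr6:46649295-46649594, minus strand: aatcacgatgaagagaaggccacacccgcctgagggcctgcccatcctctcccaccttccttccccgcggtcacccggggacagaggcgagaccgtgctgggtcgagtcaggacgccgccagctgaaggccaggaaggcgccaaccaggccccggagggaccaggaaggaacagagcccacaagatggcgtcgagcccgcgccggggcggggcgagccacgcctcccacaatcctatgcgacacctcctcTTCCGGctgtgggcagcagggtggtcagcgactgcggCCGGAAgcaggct
RefSeq gave a promoter for 7 of the 8 genes, with none listed for Furin. The motif was found in 1 of these 7, in Adam17, at 2 places that begin at the start site and 37 bases downstream of it. Of all 33469 promoters of this length, 15% held the motif on either strand. The search describes these letters in this window and nothing of where ETS1 binds.

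Library depth ranged from 898092 to 2248258 reads on genes, and mitochondrially encoded genes took from 14.1 to 27.4% of them. In the spleen Ets1 table the edited libraries were deeper, with 1909862 to 2248258 reads against 898092 to 1213485 in controls. Ets1-KO replicate 3 of the spleen stood apart from its group: its counts differed from those of the other 2 libraries with a chi-square per degree of freedom of 9.66 and 10, where all other pairs of libraries within a group gave 1.48 to 4.44. Differences that were tested for members in the spleen Ets1 table are given with and without its replicate number below. Grk2 had a mean normalized count of 157.9 ± 14.1 (SD, n = 3) in controls and 68.3 ± 17.4 (SD, n = 3) in Grk2-KO cells. Ets1 was not lower in the libraries labelled Ets1-KO. Its log2 difference from control was 0.09 ± 0.07 (SE) in parenchyma and -0.06 ± 0.11 (SE) in spleen. Reads from the 3′ end do not show the edited site, so the Ets1-KO labels are not checked by the mRNA. The paper states that KO efficiency in its single-KO lines was checked in DNA before use, and it also blotted ETS1 protein. All 8 T cell markers were detected in every group, at a summed 2600 to 3380 RPM (reads per 1000000 reads on genes in the same library), while the 12 myeloid markers summed to 1.71 to 46.8 and the 6 B cell markers to 1.36 to 9.89. Neural and glial markers summed to 17.3 to 64.0 RPM, and neutrophil, CD8 T cell, endothelial and stromal markers to at most 7.92. Cd163, Adgre1, Cd22, Pax5, Cd8b, Csf3r, Elane, Cdh5, Cldn5 and Aqp4, which mark these other cells, had no read in any library.

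Dpp4 (ENSRNOG00000030763, chr3:48291054-48372672 in Rnor_6.0, minus strand) showed the widest difference of the set, and it did so in the Grk2 experiment. Normalized counts, which are reads divided by a size factor of the library, were 20.6, 26.6 and 30.4 in control replicates 1, 2 and 3 and 6.11, 5.18 and 4.55 in Grk2-KO replicates. Every edited library lay below every control library, with 7, 5 and 5 reads against 19, 24 and 30. In RNA of a whole sorted sample, fewer cells that express a gene and less RNA of it per cell cannot be told apart. Dpp4 thus fell in Grk2-KO cells to 0.204 times the control mean, a log2 difference of -2.09 ± 0.36 (SE, n = 3 pairs) in limma's moderated test on log2(normalized count + 1) with the replicate number as a block. The mean over the 6 libraries is over the minimum of 10 normalized counts that a gene needed to be tested, but only because of the control group, so the passing of the filter supports nothing.

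The same gene was near the limit of detection in the Ets1 experiment. In parenchyma the normalized counts were 8.41, 4.70 and 4.91 in controls and 2.02, 4.04 and 2.27 in Ets1-KO cells, from 2 to 9 reads per library, and the mean was under the minimum, so no test was made. The groups did not overlap, yet they are apart by few reads. In spleen the controls had 7.66, 0 and 6.27 and the Ets1-KO libraries 10.3, 5.58 and 1.87, and these groups overlapped, with or without replicate 3. A count of 0 allows up to 3.23 normalized counts in that control library, taking 3 reads as the limit that no read allows, for counting error only.

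The control cells of the 2 spleen experiments were apart in Dpp4. Levels in RPM were 16.1 to 22.8 in the controls of the Grk2 experiment and 0 to 5.77 in those of the Ets1 experiment, a mean 5.82 times higher. Parenchyma controls had 3.23 to 6.02. Below the controls of the Grk2 experiment, at a mean of 19.8, came spleen Ets1-KO cells at 4.49, parenchyma controls at 4.24, Grk2-KO cells at 4.08, spleen controls of the Ets1 experiment at 3.41 and parenchyma Ets1-KO cells at 1.96. Among these 5 groups each overlapped its neighbour in the order. The 3 tables were made and scaled separately, so tissue, experiment and library preparation cannot be told apart in such comparisons and none was tested.

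**Figure D1:**
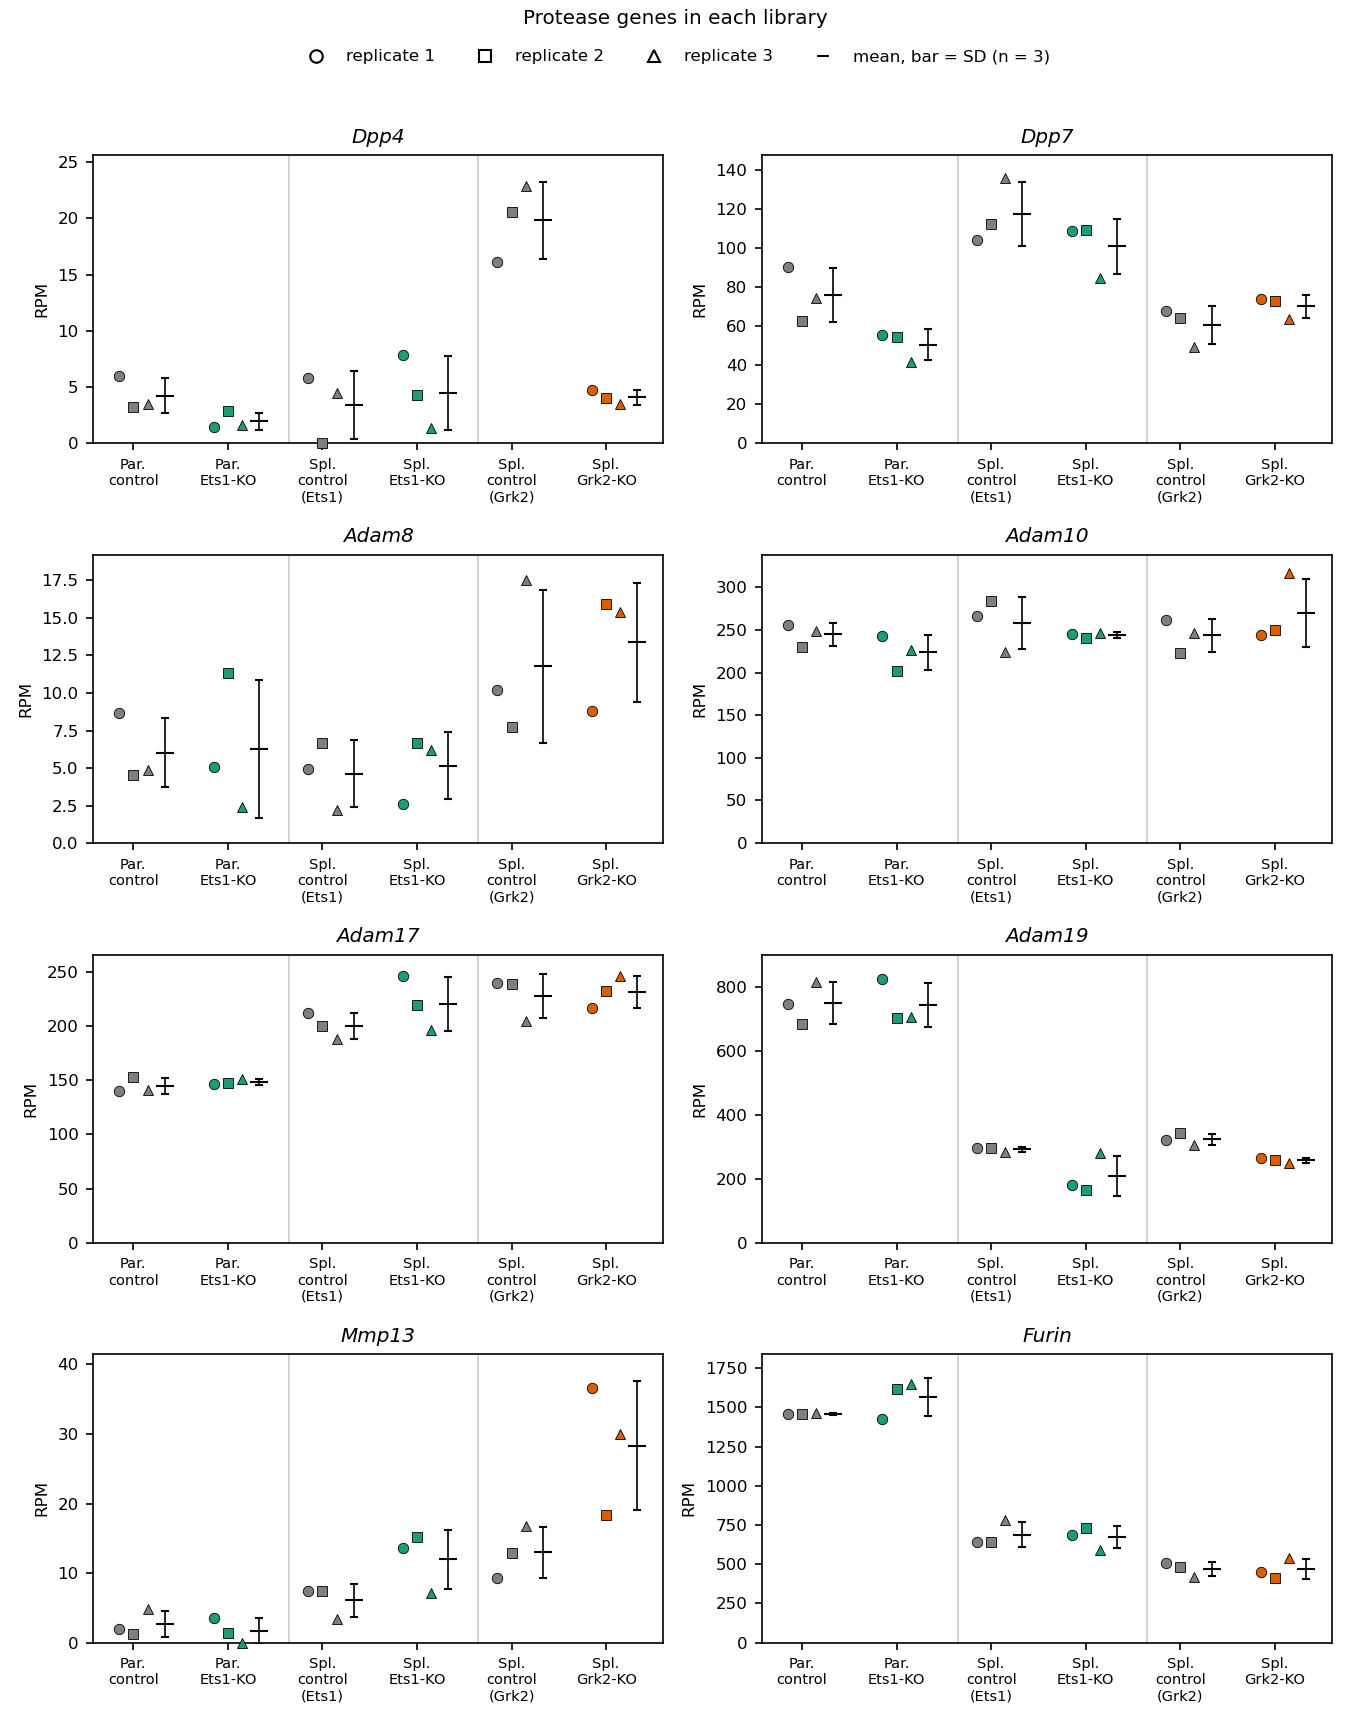
RPM in each of the 18 libraries for the 8 protease genes (vertical axis, linear, from 0); points are libraries, shaped by replicate number, with the mean and SD beside them. Par. is parenchyma and Spl. spleen, and grey lines divide the 3 tables. Dpp4 stands at 16.1 to 22.8 in the spleen controls of the Grk2 experiment and at 7.85 or less in all other libraries.

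Dpp7 (ENSRNOG00000012640, chr3:2569134-2573387, minus strand) encodes a related dipeptidyl peptidase of intracellular vesicles that can also be released. In parenchyma its normalized counts were 126.1, 91.2 and 105.2 in controls and 77.8, 77.8 and 58.9 in Ets1-KO cells. All 3 edited libraries were lower than all 3 controls. Dpp7 fell by 0.58 on the log2 scale (SE 0.15, n = 3 pairs), to 0.666 times the control mean. The call was lost without replicate 1, at -0.53, and without replicate 3, at -0.46. In spleen, Ets1-KO libraries had 118.6 to 142.6 and controls 137.8 to 191.2, a log2 difference of -0.22 ± 0.15 (SE) that did not pass and that was 0.01 without replicate 3. In Grk2-KO cells it was 0.21 ± 0.14 (SE), with overlapping groups. The T cell markers summed to 2980 to 3160 RPM in parenchyma controls and 3250 to 3380 in parenchyma Ets1-KO libraries, and these ranges did not overlap. The myeloid markers, at 18.1 to 36.9 and 30.5 to 46.8, overlapped between these groups. Their part in the difference of Dpp7 was not tested.

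Adam19 (ENSRNOG00000042980, chr10:31146106-31240582, plus strand), an ADAM protease that sheds neuregulins, was lower in edited cells in both spleen experiments and close to control in parenchyma. In Grk2-KO spleen cells the normalized counts were 342.3, 337.6 and 323.8, against 411.9, 444.5 and 408.8 in controls. No edited library reached the lowest control. The log2 difference was -0.33 ± 0.08 (SE, n = 3 pairs), so that Adam19 fell to 0.793 times control, and the 3 pairs gave -0.27, -0.40 and -0.34. The call was lost when any of the 3 replicate numbers was left out, at -0.30 to -0.37.

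In the spleen Ets1 table, Adam19 counted 394.9, 385.1 and 401.1 in controls and 236.2, 215.8 and 394.0 in libraries labelled Ets1-KO. Replicates 1 and 2 were well under the controls, and replicate 3, the library that stood apart, was among them. The log2 difference was -0.53 ± 0.14 (SE, n = 3 pairs) and passed the test. Without replicate 3 it was -0.79 and passed, and without replicate 1 or 2 it was -0.43 and -0.38 and did not. In parenchyma the 3 Ets1-KO libraries had 998.6 to 1160 and the controls 998.7 to 1156, a log2 difference of -0.02 ± 0.08 (SE) with a 95% interval of -0.17 to 0.13. The difference between the tissues, parenchyma minus spleen, was 0.51 ± 0.16 (SE) on the log2 scale. It did not pass the test over all genes, and was called only without replicate 3, at 0.86.

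Mmp13 (ENSRNOG00000008478, chr8:5522738-5533018, plus strand), a collagenase, was the member that was higher in edited cells. Grk2-KO libraries had 47.2, 23.8 and 39.1 normalized counts and controls 11.9, 16.6 and 22.3, from 11 to 54 reads. The lowest edited library was just above the highest control. Mmp13 rose by a log2 difference of 1.06 ± 0.27 (SE, n = 3 pairs), to 2.17 times the control mean, with pairs at 1.90, 0.49 and 0.79. Leaving out any replicate number lost the call, and the difference then lay between 0.64 and 1.34.

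In the spleen Ets1 table Mmp13 had 17.8, 19.8 and 9.99 normalized counts in Ets1-KO cells and 9.84, 9.68 and 4.70 in controls. These groups too did not overlap but came within less than 1 normalized count of each other. The log2 difference of 0.90 ± 0.40 (SE) did not pass, and without replicate 3 it was 0.88. The control mean there was 8.08, so the gene passed the minimum of 10 through its edited libraries alone. In parenchyma all 6 libraries had 0 to 7 reads of Mmp13 and it was not tested.

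Furin (ENSRNOG00000011352, chr1:142185093-142197182, minus strand) was measured with many reads and was close to control in all 3 comparisons. The log2 difference was 0.09 ± 0.07 (SE) in parenchyma Ets1-KO cells, -0.04 ± 0.12 (SE) in spleen Ets1-KO cells and -0.01 ± 0.08 (SE) in Grk2-KO cells. Without replicate 3 the spleen Ets1 value changed sign, to 0.15, and did not pass. The 95% intervals of the fits with all libraries were -0.05 to 0.23, -0.28 to 0.21 and -0.17 to 0.14. 

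The sheddases Adam10 (ENSRNOG00000054257, chr8:77107535-77237483, plus strand) and Adam17 (ENSRNOG00000060694, chr6:43400527-43448280, minus strand) also overlapped between groups in every table. Adam10 differed by -0.14 ± 0.10 (SE) in parenchyma, -0.08 ± 0.12 (SE) in spleen Ets1-KO and 0.14 ± 0.09 (SE) in Grk2-KO cells. Adam17, whose promoter held the ETS motif, differed by 0.03 ± 0.11 (SE), 0.13 ± 0.12 (SE) and 0.02 ± 0.09 (SE). Without replicate 3 the spleen Ets1 values were -0.18 for Adam10 and 0.17 for Adam17, and neither passed. The widest of the 95% intervals of Adam17, in spleen Ets1-KO cells, ran from -0.11 to 0.38. Adam8 (ENSRNOG00000017897, chr1:212317847-212330349, minus strand), a metalloprotease of activated leukocytes, had 2 to 23 reads in every library and was tested in the Grk2 table only. There it counted 13.0, 9.98 and 23.3 in controls and 11.4, 20.7 and 20.0 in Grk2-KO cells, a log2 difference of 0.20 ± 0.32 (SE).

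**Figure D2:**
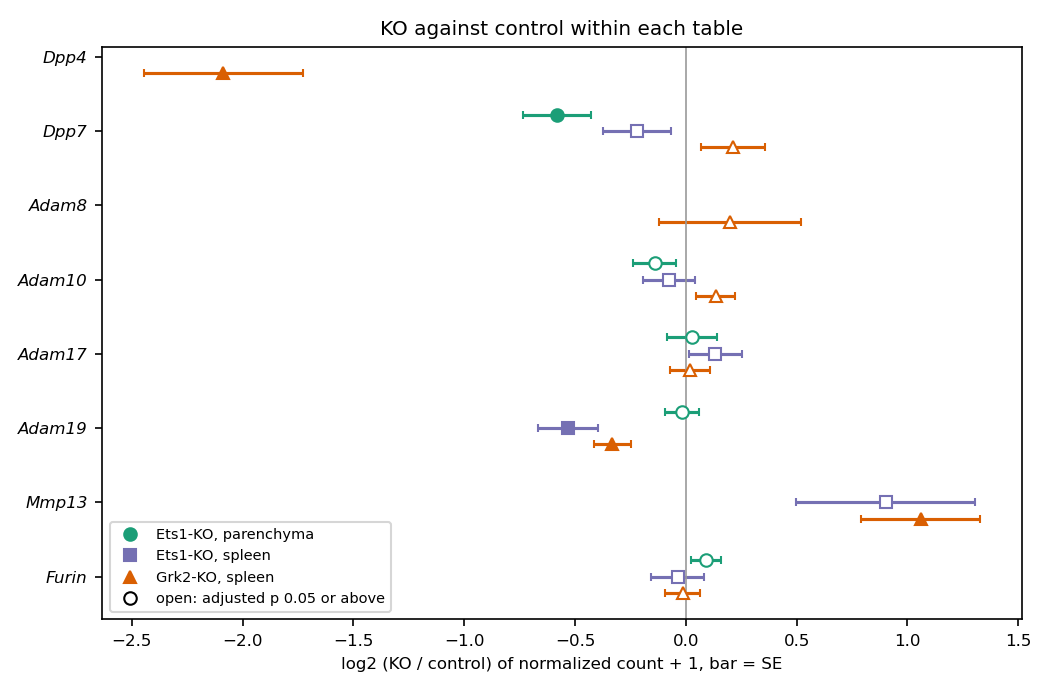
Log2 ratio of edited to control cells (horizontal axis, normalized count + 1) for each gene that reached the minimum, in the 3 comparisons, with SE bars; filled symbols passed the test over all genes and open ones did not. Dpp4 at -2.09 and Mmp13 at 1.06 in Grk2-KO cells are the values farthest from 0.

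The 5 called differences kept their direction under every setting tried, but the calls did not all hold. The fit without a mean-variance trend called none of them. DESeq2 gave no adjusted p for Dpp4 and Mmp13 in the Grk2 table and did not call the other 3. Dpp4 was not called without replicate 2, at -2.05. Without the replicate block the calls of Dpp4 and Dpp7 held, whereas those of Adam19 in both spleen tables and of Mmp13 did not.

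**Figure D3:**
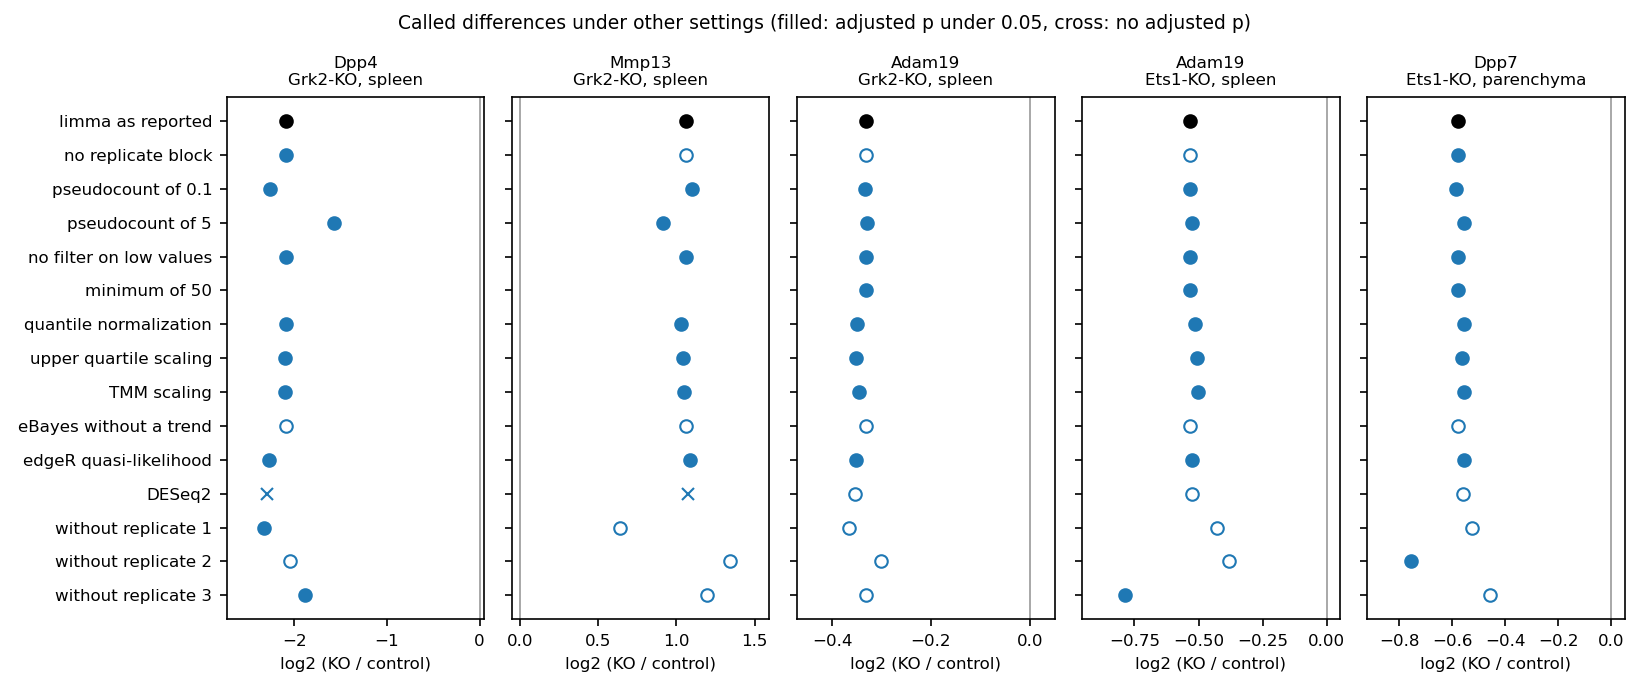
Log2 ratio of edited to control cells (horizontal axes, scaled per panel) for the 5 called differences under each setting (rows); the black point is the reported fit, filled points have an adjusted p under 0.05, open points do not, and crosses have no adjusted p. All points of a panel lie on the same side of 0, with Dpp4 from -2.33 to -1.58.

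Counted over the set, 5 of 8 genes were tested in parenchyma and 1 passed, where 5.23% of the 7002 genes tested there passed. In spleen Ets1-KO cells 6 were tested and 1 passed, with 2.22% of 6979 genes passing. In the Grk2 table all 8 were tested and 3 passed, with 1.56% of 6985 genes passing. In the difference of the Ets1 effect between tissues, 0 of 5 tested members passed by limma and 1 had an unadjusted p under 0.05, with 2.10% of 6520 genes passing. Groups did not overlap for 1, 1 and 3 of the tested members in the order parenchyma, spleen Ets1 and Grk2, and for 18.4%, 16.9% and 12.2% of all genes tested. As the members were chosen from these same contrasts, nothing is read from their counts.

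The control levels ordered the tissues differently for different proteases. Adam19 was at 686.8 to 818.3 RPM in parenchyma controls and at 285.0 to 343.2 in the 6 spleen controls. Furin was at 1456 to 1466 in parenchyma and at 419.3 to 782.8 in spleen. Both were higher in every parenchyma control than in every spleen control. Adam17 went the other way, at 140.4 to 153.3 in parenchyma and 188.2 to 240.0 in spleen. The other 5 genes overlapped in this comparison. Of the 7778 genes that reached the minimum in at least 1 table, 10.7% were higher in every parenchyma control than in every spleen control and 14.5% were lower, beside 2 and 1 of the 8 members. Adam10 had close to the same level in all 3 control groups, with means of 244.9, 258.0 and 243.5. Markers of other cells were higher in parenchyma controls too, with myeloid sums of 18.1 to 36.9 RPM against 1.71 to 6.79 in spleen controls and neural and glial sums of 51.5 to 64.0 against 18.9 to 35.6. Their part in the levels of Adam19 and Furin was not tested. Mitochondrially encoded genes took 25.4 to 27.4% of reads in parenchyma controls and 17.3 to 22.6% in spleen controls. With those reads left out, the ratio of parenchyma to spleen controls of the Ets1 experiment went from 0.725 to 0.809 for Adam17 and from 2.56 to 2.85 for Adam19.

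The 2 spleen control groups did not overlap for 6 of the 8 genes, all but Adam10 and Adam17, and for 58.8% of the same 7778 genes. Mean ratios of the Grk2 to the Ets1 experiment ranged from 0.516 for Dpp7 to 5.82 for Dpp4. Adam8 and Mmp13 had 2.56 and 2.13 times the mean of the Ets1 experiment. For Adam19 the ratio between the spleen control groups was 1.10, and the ratio of parenchyma to spleen was 2.56 and 2.32.

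The genes whose levels followed Dpp4 most closely were taken over the 18 libraries, from 6207 genes with a mean of at least 10 normalized counts in each table. Pearson's r on log2(RPM + 1) was 0.804 for Slx1b, 0.759 for Mx2, 0.742 for Coq10a, 0.741 for Tmem110 and 0.732 for Kxd1. The libraries share tables and tissues, so r describes these libraries and is not tested. Dpp4 itself was under that minimum in both Ets1 tables, with means of 4.4 in parenchyma and 5.3 in spleen. Only the controls of the Grk2 experiment had 19 or more reads of it, so r leans on that group and on low counts elsewhere. Mx2, an interferon-induced GTPase, had 74.9 RPM in the controls of the Grk2 experiment and 47.5 in Grk2-KO cells, against 31.2 to 49.7 in the group means of the Ets1 tables. Kxd1 shared the higher level of the Grk2 experiment but not the difference within it, at 46.0 in controls and 47.4 in Grk2-KO cells.

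Lists of related genes were then counted: other proteases of the same families, their inhibitors, their partners and their substrates, 130 genes in 12 lists, of which 126 were in the tables. Most were hardly expressed. None of the 16 other matrix metalloproteases found in the tables and none of the 5 metalloprotease inhibitors reached the minimum in any table, and 8 of those 16 had no read in any library. Of 33 list genes tested in parenchyma 9 passed, 27.3% beside 5.23% of all genes, and the median log2 difference was -0.02 against -0.03 over all genes. In spleen Ets1-KO cells 1 of 29 passed, 3.45% beside 2.22% of all genes. In Grk2-KO cells 3 of 30 passed, 10.0% beside 1.56%. The lists were written with earlier results known, so these shares are a description. The adjusted p-values of list genes below are likewise not independent evidence of a difference. Every call of a list gene named below was lost in the fit without a mean-variance trend, where the adjusted p of Lag3 was 0.281 and that of Ccl3 in parenchyma 0.278.

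Among the substrates of DPP4, Ccl5, the chemokine RANTES, passed in all 3 comparisons by limma. It rose in Ets1-KO cells from 2010 ± 231 (SD, n = 3) to 2614 ± 255 normalized counts in parenchyma and from 905 ± 50 to 1578 ± 116 in spleen. The log2 differences were 0.38 ± 0.07 (SE, limma adjusted p = 2.95e-06) and 0.80 ± 0.11 (SE, limma adjusted p = 0.000167). The spleen call was lost without replicate 1, and without replicate 3 the difference was 0.81 and passed. In Grk2-KO cells Ccl5 fell from 518 ± 144 to 335 ± 31, by 0.59 on the log2 scale (SE 0.09, limma adjusted p = 3.20e-07). Its groups overlapped there, and the call was lost without the replicate block, by DESeq2 (adjusted p = 0.999) and without replicate 2. Ccl3, another chemokine of the list, rose in parenchyma Ets1-KO cells by 0.60 ± 0.09 (SE, limma adjusted p = 3.27e-08).

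Calls also came from partners of DPP4. Igf2r, a mannose 6-phosphate receptor listed as a partner of DPP4, rose in parenchyma Ets1-KO cells from 122 ± 20 to 193 ± 16 normalized counts, a log2 difference of 0.66 ± 0.12 (SE, limma adjusted p = 1e-05). Cxcr4, a chemokine receptor, rose in Grk2-KO cells by 0.41 ± 0.09 (SE, limma adjusted p = 0.00462), from 227 ± 39 to 301 ± 56, with overlapping groups. That call was lost without the block, by DESeq2 (adjusted p = 0.929) and without replicate 1 or 2.

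Of 11 substrates of ADAM10 and ADAM17 tested in parenchyma, 2 passed higher and 1 lower, and of 3 partners 1 passed, higher. Over all genes tested there, 5.23% passed. Lag3, an inhibitory receptor that these proteases shed, rose from 254 ± 11 to 381 ± 28 normalized counts, by a log2 difference of 0.58 ± 0.10 (SE, limma adjusted p = 7.20e-07). Havcr2, which encodes the receptor TIM-3, rose by 1.11 ± 0.32 (SE, limma adjusted p = 0.0136), from 12 to 27 normalized counts. Cd44, an adhesion receptor, fell in parenchyma Ets1-KO cells by 0.59 on the log2 scale (SE 0.13, limma adjusted p = 0.000484). DESeq2 did not call that fall (adjusted p = 0.133). In Grk2-KO spleen cells Cd44 rose by 0.42 ± 0.08 (SE, limma adjusted p = 0.000407), and that call was lost without the replicate block, by DESeq2 and without replicate 1 or 2. Tspan5, a tetraspanin that guides ADAM10, rose in parenchyma by 0.59 ± 0.18 (SE, limma adjusted p = 0.0226).

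Of other proteases, Adamts14, a procollagen peptidase, rose in parenchyma Ets1-KO cells from 129 ± 9 to 200 ± 39 normalized counts, by 0.61 ± 0.12 (SE, limma adjusted p = 4.77e-05). Ggt1, a surface enzyme that breaks down glutathione, rose there by 0.31 ± 0.09 (SE, limma adjusted p = 0.0123). The calls of Havcr2, Tspan5 and Ggt1 were each lost when 2 of the 3 replicate numbers were left out in turn, and that of Adamts14 was lost without replicate 2. Those of Tspan5 and Ggt1 were also lost without the block, without the filter on low values and by DESeq2. That of Havcr2 was lost without the filter, and DESeq2 gave no adjusted p for this gene. In the lists of prolyl peptidases, proprotein convertases, furin substrates and plasminogen system genes, 0 genes passed by limma in any of the 3 comparisons. Of the 27 tests of a gene in these lists, 8 had an unadjusted p under 0.05, 0 passed by edgeR's quasi-likelihood test and 0 by DESeq2. The 8 were 4 of 9 tests in parenchyma, 0 of 8 in spleen Ets1-KO and 4 of 10 in Grk2-KO cells. Over all genes, 1186 of 7002, 984 of 6979 and 728 of 6985 had an unadjusted p under 0.05 by limma.

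**Figure D4:**
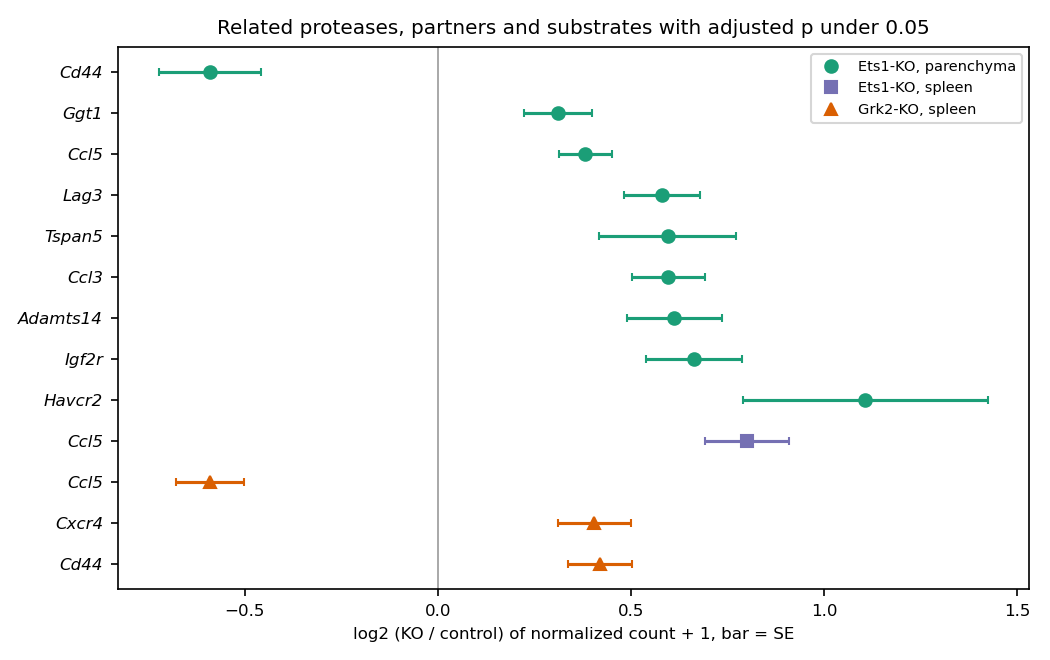
Log2 ratio of edited to control cells (horizontal axis, normalized count + 1, SE bars, n = 3 pairs) of the list genes that passed the test, ordered within each comparison. Havcr2 at 1.11 and Ccl5 at 0.80 are the highest, and Ccl5 at -0.59 in Grk2-KO cells and Cd44 at -0.59 in parenchyma Ets1-KO cells the lowest.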

How the data were processed

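Poly(A) RNA of sorted T-MBP cells was made into 3′ libraries (Collibri kit) and sequenced as single-end 50-base reads. Per the submitters' processing notes, the authors used STAR 2.7.2b, Rnor_6.0, HTSeq 1.0.0, DESeq2 2.11.40.7 and R 4.0.0, and they deposited counts divided by size factors, a normalized signal per gene. The strand setting of the counting is not given in the sources used here. Whole reads were recovered from the smallest step of each library (tolerance 0.01).

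The 8 genes and all lists were chosen with earlier results of these data known. A gene entered the test when its mean over a table's 6 libraries was at least 10 normalized counts. The model was limma 3.58.1 (trended eBayes, R 4.3.3) on log2 values with a pseudocount of 1 and the replicate number as a block, and p-values were adjusted by Benjamini-Hochberg over all genes tested, with a threshold of 0.05. edgeR 4.0.16 and DESeq2 1.42.0 on recovered reads were alternatives. The fits were run on simulated counts with known changes. These had the same dispersion for all genes and no outlying library, so they do not cover either departure in the real data. All 8 members were named, with up to 4 called genes per list and the 5 genes most like Dpp4. The study describes its replicates as biological, and the labels do not name the animal behind each replicate number. With 3 libraries a group, an exact permutation test that ignores the replicate number cannot go below p = 0.1. One that exchanges libraries only within pairs has a higher limit still. The 95% intervals come from the limma fits, and the floors of 3 reads cover counting error only. The weight limma gave to the mean-variance trend over all genes, its prior degrees of freedom, was infinite in parenchyma. It was 22 in spleen Ets1, 141 in Grk2 and 33.1 for the difference. In parenchyma, SE, intervals and p-values thus follow the trend and not a gene's own spread between libraries, and in the Grk2 table mostly so. Control levels are RPM of recovered reads, without a test. The 8 human columns of per-sample values were not used, nor were the tables of the authors' own fold changes and p-values and of pathway terms.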

Additional observations from a re-analysis of the deposited data

Results flagged for a closer look

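Of 27 list genes tested for a difference of the Ets1 effect between parenchyma and spleen, 3 passed (limma, 12 libraries, adjusted over 6520 genes). That was 11.1%, beside 2.10% of all genes tested. The lists were written with earlier results known, so these calls are not independent evidence of a difference. Igf2r, a mannose 6-phosphate receptor listed as a partner of DPP4, had a log2 difference of 0.66 in parenchyma and -0.25 in spleen. Parenchyma minus spleen was 0.91 ± 0.21 (SE, adjusted p = 0.0115), with the parenchyma pairs all above 0 and the spleen pairs of mixed sign. Ccl3, a chemokine, had 0.60 in parenchyma and -0.44 in spleen, a difference of 1.03 ± 0.21 (SE, adjusted p = 0.00408). Cpd, a surface carboxypeptidase, had -0.29 in parenchyma, where all 3 pairs were below 0, and 0.55 in spleen, where all 3 were above 0, a difference of -0.84 ± 0.18 (SE, adjusted p = 0.00603). Neither single comparison of Cpd passed. Without replicate 3, the number of the spleen Ets1-KO library that stood apart, none of the 3 was called. Over the 12 alternatives the adjusted p ran from 0.00732 to 0.278 for Igf2r, from 0.00169 to 0.278 for Ccl3 and from 0.00493 to 0.204 for Cpd.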

How the results depend on the processing

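The count of members called is the measure here. It was 1 in parenchyma, 1 in spleen Ets1-KO, 3 in Grk2-KO cells and 0 for the difference between tissues. Without a trend the counts were 0, 0 and 0 in the first 3, and by DESeq2 they were 0, 0 and 0, with no adjusted p for 1 member in the spleen Ets1 table and 3 in the Grk2 table. Without the replicate block they were 0 in spleen Ets1-KO and 1, Dpp4, in Grk2-KO cells. With a minimum of 50 normalized counts 1 member, Adam19, was called in Grk2-KO cells, since Dpp4, Adam8 and Mmp13 were then not tested. Leaving out 1 replicate number gave 0 to 1 calls in each of the 3 comparisons and in the difference, where Adam19 was called without replicate 3. Of the members' log2 differences and control ratios, none changed sign where called, and Dpp4 in Grk2-KO cells was -1.58 with a pseudocount of 5.

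Among the list genes named, 48 alternative values lost the call and 0 turned the sign.

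Over all genes, the calls in parenchyma, spleen Ets1-KO and Grk2-KO cells and the difference were 366, 155, 109 and 137. They were 3, 0, 0 and 2 without a trend (893, 785, 571 and 757 at an unadjusted p under 0.05), 200, 71, 19 and 47 without the block and 90, 48 and 9 by DESeq2. edgeR gave 238 in spleen Ets1-KO cells, and a minimum of 50 gave 60 in Grk2-KO cells. Without a filter there were 212 in parenchyma and 242 in spleen Ets1-KO cells. Leaving out a replicate number gave 165 to 278, 3 to 241, 9 to 48 and 26 to 96. The share of calls that were higher went from 43.4% to 53.6% in parenchyma and from 45.8% to 58.3% in spleen Ets1-KO cells with TMM scaling, and from 59.6% to 45.3% in Grk2-KO cells with quantile normalization.

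The same replicate number did not clearly pair the libraries: the deviations of same-numbered libraries correlated at -0.003 to 0.159 in parenchyma, 0.077 to 0.175 in spleen Ets1 and 0.006 to 0.145 in Grk2, and each library correlated best with its own number only in the spleen Ets1 table. The cause of these changes was not tested. Low reads limit Dpp4, Adam8 and Mmp13.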
